A study of Mus musculus with 52 samples.

Results

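The hypothalamic neuropeptide genes Oxt, Avp, Trh, Gal, Pmch, Hcrt, Agrp and Pomc were examined in 52 RNA-seq libraries of mouse brain, in which mice lacking the microRNA gene Mir146 (KO; miR-146a KO in the labels) were compared with wild type (WT). They were chosen as peptides of hypothalamic neurons, with earlier results of these data known, and looked up by symbol. All 8 were found among the 48526 genes of the deposited tables. The libraries formed 14 groups: E14 (embryonic day 14) whole cortex with 5 KO and 4 WT, P30 (postnatal day 30) amygdala, frontal cortex and hippocampus with 4 KO and 4 WT each, P60 amygdala and P60 frontal cortex with 4 KO and 3 WT each, and P60 hippocampus with 2 KO and 3 WT. The labels give no strain, sex or allele beyond the knockout, and no hypothalamus was sampled. According to the study's design text, mice of a genotype came from different mothers. That text names a different postnatal day and sensory cortex where the labels say P60 and frontal cortex, and the labels were followed.

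Each member encodes a precursor that is cut into secreted peptides. Oxt and Avp encode oxytocin and vasopressin, which large neurons of the paraventricular and supraoptic nuclei release into the blood. Trh encodes thyrotropin-releasing hormone, which drives the pituitary to release thyrotropin. Agrp and Pomc mark opposing neurons of the arcuate nucleus, the first promoting and the second suppressing feeding. Pmch (melanin-concentrating hormone) and Hcrt (the orexins) mark separate neurons of the lateral hypothalamus and act on feeding and wakefulness. Gal encodes galanin, which is widespread in hypothalamus and brainstem. Some of these genes are also used outside the hypothalamus, for example Avp in the medial amygdala of male rodents, and the amygdala lies directly beside the hypothalamus.

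The promoters of Trh, Oxt and Avp are printed because Trh was the member with the most reads and because Oxt and Avp are neighbours that were high in some of the same libraries. Each is the 250 bases before the gene's start on its own strand (RefSeq, GRCm38.p6), and capitals mark the letters AGGTCA or, for the other strand, TGACCT, the half-site recognised by thyroid hormone, retinoid and related nuclear receptors.
Trh, chr6:92244651-92244900, minus strand: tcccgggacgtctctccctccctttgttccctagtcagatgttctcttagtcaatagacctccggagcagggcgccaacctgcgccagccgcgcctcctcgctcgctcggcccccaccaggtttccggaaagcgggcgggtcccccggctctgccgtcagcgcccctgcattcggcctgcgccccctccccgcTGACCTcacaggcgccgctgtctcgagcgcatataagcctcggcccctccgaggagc
Oxt, chr2:130575919-130576168, plus strand: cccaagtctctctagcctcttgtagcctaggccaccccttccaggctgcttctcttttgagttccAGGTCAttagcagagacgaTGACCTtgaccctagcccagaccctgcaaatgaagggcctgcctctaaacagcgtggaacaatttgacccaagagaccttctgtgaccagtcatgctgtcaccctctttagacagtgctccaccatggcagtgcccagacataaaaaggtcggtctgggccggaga
Avp, chr2:130582589-130582838, minus strand: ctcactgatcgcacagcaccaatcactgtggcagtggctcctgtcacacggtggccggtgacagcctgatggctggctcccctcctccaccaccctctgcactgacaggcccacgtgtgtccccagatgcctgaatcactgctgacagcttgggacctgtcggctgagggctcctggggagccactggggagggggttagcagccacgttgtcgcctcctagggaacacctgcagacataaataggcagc
The half-site occurred once before Trh, 57 bases before the start, where the next bases complete TGACCTCA, a sequence that also resembles a cyclic AMP response element. It occurred at 2 places before Oxt, 185 and 166 bases before the start, and had no match in this window before Avp. Searching both strands, AGGTCA was present in 14.02% of 32851 promoters of this length and TGACCTCA in 1.94%. Of the 7 members with a promoter in the table, 3 held AGGTCA, the third being Pomc at 62 bases before the start. Agrp had no entry.

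The deleted microRNA is printed because its seed defines the sites it can pair with. Its guide strand, miR-146a-5p, is encoded on chromosome 11 at 43374435 to 43374456 on the minus strand (RefSeq, GRCm38.p6), and capitals mark the seed, bases 2 to 8.
miR-146a-5p: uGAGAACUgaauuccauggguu
The matching letters AGTTCTC occurred in the longest annotated transcript of 0 of the 8 members. They occurred in 24.3% of 21901 protein-coding genes, and in 9.4% of the 4539 whose longest transcript has 500 to 1500 bases, as short as most members. The short precursor of the deleted gene was itself hardly covered by these libraries of polyadenylated RNA: Mir146 had a read in 1 of 52 libraries, WT P30 hippocampus replicate 4, so its level does not check the genotype labels.

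Values are normalised reads as deposited, which are reads times 1 factor per library. One read was worth 0.104 to 0.343, with 2933026 to 9469214 reads assigned to genes per library, so a count of 0 allows a value of up to 0.313 to 1.03 (3 reads, counting error only). The 3 ages were normalised in separate tables, so levels of different ages are set side by side without a test. Replicates of a group are separate samples in the labels, which do not say whether the regions came from the same animals. Sex, read from Xist and Y-linked genes, was the same in every region for each of the 15 replicate numbers of a genotype and age at P30 and P60. The region tests treat libraries as independent, and with the replicate number as a block Trh kept its 4 calls. At P30 and P60 the median sum of each region's marker list was highest in that region, but 4 libraries had less than 0.75 of the median sum of their own region's list: WT P30 amygdala 3 (0.653 of the median), WT P30 hippocampus 3 (0.702), KO P60 hippocampus 1 (0.470) and WT P60 hippocampus 1 (0.502). The choroid plexus list summed to 9991 in WT P30 hippocampus 3 and to 2112 in WT P30 amygdala 1, and the striatum list to 1753 in KO P60 hippocampus 1 and 2791 in WT P60 hippocampus 1. Where they include any of these 4 libraries, region calls of Trh and Agrp, exact tests of Pomc and Gal and gene list counts are given with and without them. Region tests of the other members are not all given. In such tissue pieces, fewer cells of a type and less RNA per cell cannot be told apart.

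Trh stood far above the other members and did so in the amygdala. It had 2794 reads in all 52 libraries, and 92.7% of them came from the 15 amygdala libraries. Agrp had 439 reads, Pomc 356, Avp 323, Gal 144, Pmch 118, Hcrt 50 and Oxt 41. Agrp and Pomc had at least 1 read in each of the 52 libraries, while Oxt had none in 35, and Pmch and Hcrt none in 26 each. A minimum level, 10 reads in a library of median depth, had to be reached in at least the number of libraries that the smallest group of that age holds. It was passed by 4 members at E14 (Agrp, Pmch, Pomc and Trh), 3 at P30 (Agrp, Avp and Trh) and 4 at P60 (Agrp, Avp, Gal and Trh). The members that failed it were compared by exact permutation tests of their values.

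**Figure D1:**
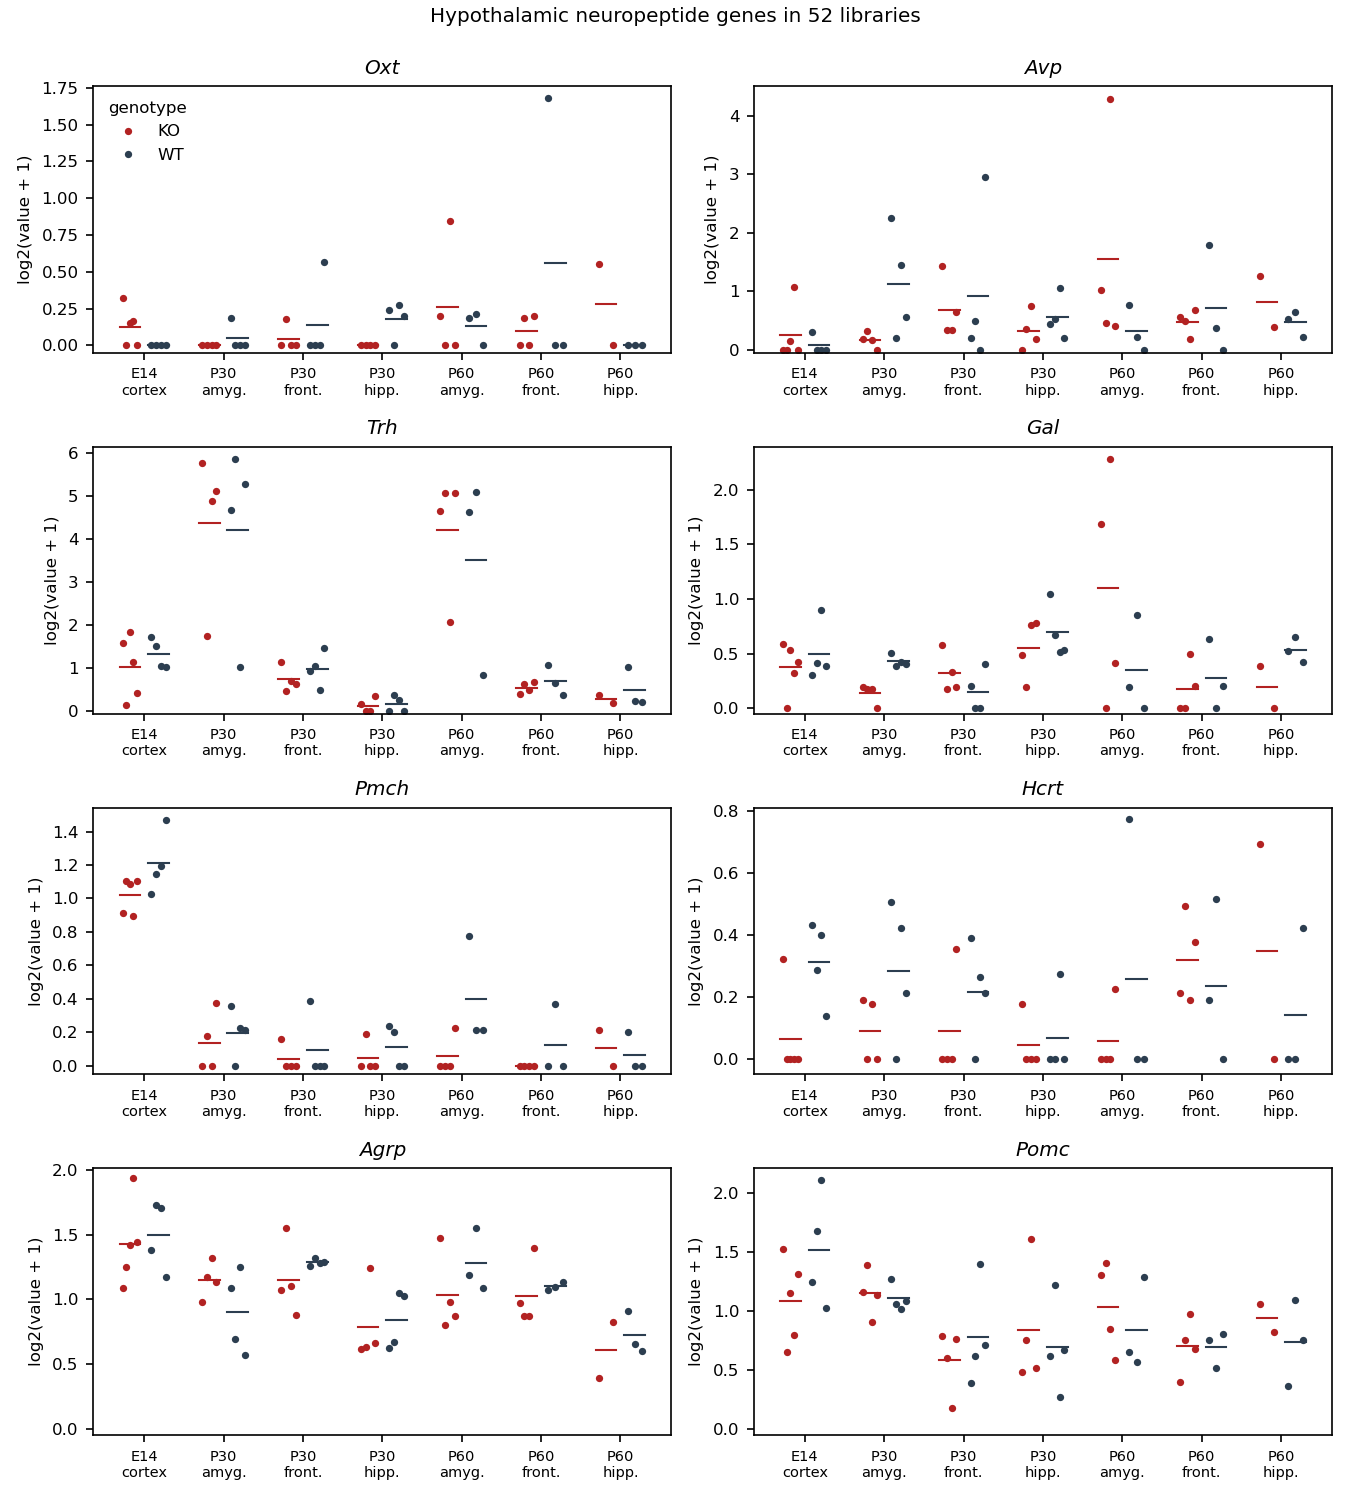
Level of each of the 8 members in all 52 libraries, as log2(value + 1) of the deposited normalised reads, by age and region, with KO (red) left of WT (dark). Points are libraries and bars are group means. Trh is high in most P30 and P60 amygdala libraries, and single points stand out for Avp, Oxt and Gal.

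In the P30 amygdala, Trh (chromosome 6, 92242061 to 92244650, minus strand, GRCm38) had 53.83, 2.38, 28.79 and 33.80 normalised reads in the 4 KO libraries and 24.63, 57.02, 1.03 and 38.23 in the 4 WT libraries. In the P60 amygdala it had 24.20, 32.65, 3.22 and 32.56 in KO and 23.72, 33.46 and 0.81 in WT. The genotypes overlapped at both ages, and each of these groups held 1 library that lay far below its others. Across the 15 libraries, 4 had at most 3.22 and the other 11 at least 23.72, with none between.

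Outside the amygdala Trh was low. At P30 it averaged 29.96 ± 20.75 in amygdala, against 0.876 ± 0.474 in frontal cortex and 0.116 ± 0.135 in hippocampus (SD, n = 8 each). At P60 it averaged 21.52 ± 13.93 in amygdala (n = 7), against 0.550 ± 0.271 in frontal cortex (n = 7) and 0.370 ± 0.374 in hippocampus (n = 5). E14 cortex had 2.01, 0.11, 2.58, 1.23 and 0.34 in KO and 2.30, 1.87, 1.07 and 1.04 in WT. In the order of group means the 4 amygdala groups came first (29.70 in KO and 30.23 in WT at P30, 23.16 in KO and 19.33 in WT at P60) and did not differ among themselves beyond their SDs of 13.87 to 23.56. The E14 cortex followed (1.25 in KO and 1.57 in WT), then frontal cortex and hippocampus, with each neighbour within the spread of the next.

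Trh was higher in amygdala than in frontal cortex by 3.43 on the log2(value + 1) scale at P30 (SE 0.577, adjusted p = 0.000111, limma) and by 3.25 at P60 (SE 0.611, adjusted p = 0.00105). Against hippocampus the difference was 4.15 at P30 (SE 0.577, adjusted p = 7.97e-06, limma) and 3.48 at P60 (SE 0.673, adjusted p = 0.00136, limma). It was thus called higher in each of the 4 region comparisons, where 23.4% and 28.8% (P30, against frontal cortex and hippocampus) and 20.3% and 19.6% (P60) of all tested genes were called higher. The minimum level was a value of 1.44 at P30 and 1.54 at P60. Outside the amygdala only WT P30 frontal cortex reached it (highest 1.77), and at P60 the highest Trh elsewhere was 1.10. Trh therefore entered the P60 tests only, and the P30 tests mainly, through the region in which it was called higher. Without the 4 libraries low for their own region the difference in Trh was 3.96 at P30 against frontal cortex (adjusted p = 8.96e-07, limma). It was 4.70 at P30 against hippocampus (adjusted p = 1.22e-07, limma) and 3.65 at P60 against hippocampus, with 1 KO hippocampus library left. The only amygdala library so left out, WT P30 amygdala 3, had Trh at 1.03, so larger P30 differences followed from the choice and are no separate support. The amygdala sum behind that choice went with Trh (r = 0.91). The low-Trh libraries WT P60 amygdala 3 (0.792 of the median) and KO P60 amygdala 3 (0.81) were kept. With voom precision weights on the recovered reads, all 4 calls ended, although the differences were larger (4.25 and 6.59 at P30, 4.32 and 5.01 at P60, adjusted p from 0.0629 to 0.201, limma).

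The low Trh values went with other genes of the same libraries. The thyrotropin-releasing hormone receptor Trhr had 16.78 in KO P30 amygdala 2, against 32.75 to 76.33 in the other KO P30 libraries, and 2.41 in WT P30 amygdala 3, against 52.21 to 54.33 in the other WT P30 libraries. At P60 it had 13.52 in KO amygdala 3 and 14.01 in WT amygdala 3, against 38.00 to 56.19 in the other KO and 39.34 to 51.57 in the other WT libraries. Over all 15 libraries, with the mean of each age removed, the Pearson correlation of Trh with Trhr was 0.90 on the log2(value + 1) scale. The 3 genes whose pattern was most like that of Trh, among 13189 genes with a mean of at least 5, were Met, which encodes the receptor of hepatocyte growth factor (r = 0.97), Ctbp2, a transcriptional corepressor (r = 0.96), and Kndc1 (r = 0.95). Met had 40.85, 5.01, 19.66 and 24.38 in KO P30, 23.79, 25.43, 5.51 and 25.54 in WT P30, 21.97, 19.00, 6.60 and 25.29 in KO P60, and 18.32, 18.91 and 4.19 in WT P60, its lowest value of each group in the library with the lowest Trh. These correlations are descriptions over libraries that share a dissection and 2 tables.

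The regional marker lists moved with it. The amygdala list (12 genes) summed to 942.0 in KO P30 amygdala 2, 702.8 in WT P30 amygdala 3, 885.2 in KO P60 amygdala 3 and 864.8 in WT P60 amygdala 3, the lowest value of each group. Trh correlated with the amygdala sum at r = 0.91, with the hypothalamus sum at 0.72 and the hippocampus sum at 0.65, and inversely with the thalamus sum (-0.84), the striatum sum (-0.78) and the frontal cortex sum (-0.76). The striatum list reached 582.8 in KO P30 amygdala 2, 817.4 in WT P30 amygdala 3 and 618.2 in KO P60 amygdala 3, but 393.4 in WT P60 amygdala 3, within the 373.9 to 415.5 of its group. The part of these lists in the Trh values was not tested.

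**Figure D2:**
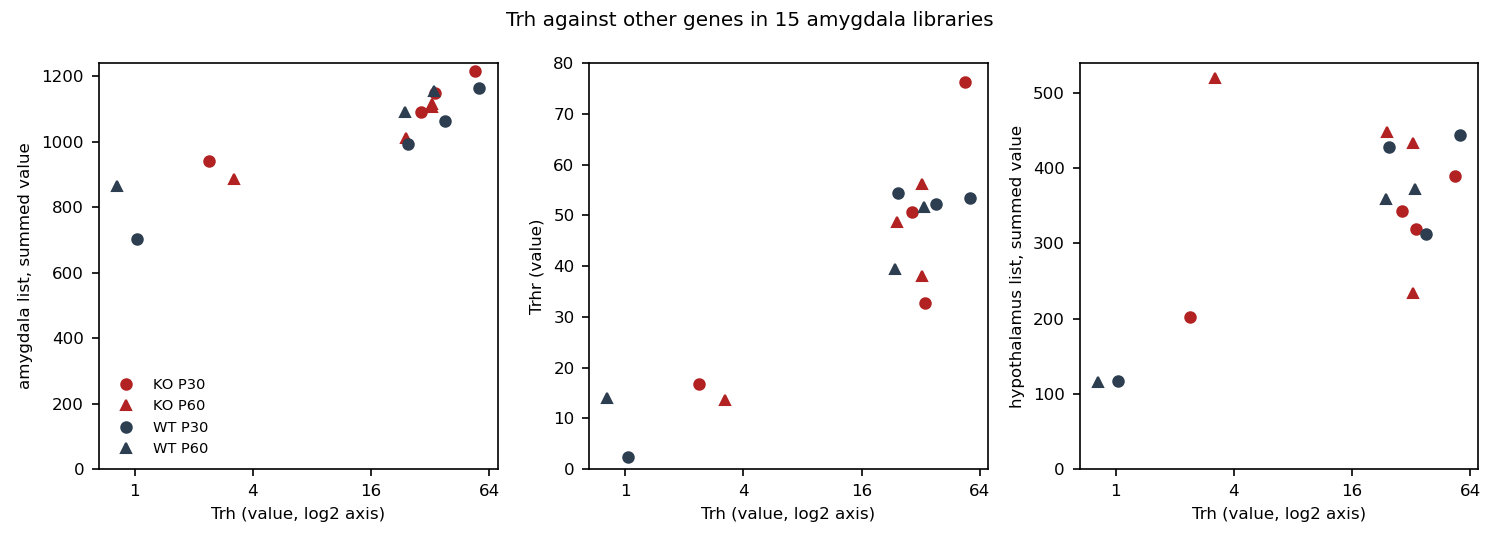
Trh in the 15 amygdala libraries (x axis, normalised reads on a log2 axis) against the summed amygdala list, Trhr and the summed hypothalamus list (y axes, linear, normalised reads). KO is red and WT dark, circles are P30 and triangles P60. The 4 libraries with Trh of at most 3.22 are lowest for the amygdala list and Trhr, while 1 of them, KO P60 amygdala 3, has the highest hypothalamus sum.

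Receptors and partner genes were also compared between regions. Of the 14 receptors of the members' peptides, 10 were tested at P30 and at P60. Against frontal cortex, 5 were called higher and 1 lower in amygdala at P30, and 4 higher and 1 lower at P60. Against hippocampus the counts were 5 higher and 2 lower at P30 and 4 higher and 1 lower at P60. The median difference of the 10 was 0.31 and 0.28 against frontal cortex at P30 and P60, and 0.34 at both ages against hippocampus, beside 0.06 to 0.07 over all genes. Without the 4 libraries low for their own region, 5 were higher and 1 lower at P30 against frontal cortex, 5 higher and 2 lower at P30 against hippocampus and 5 higher and 1 lower at P60 against hippocampus. These counts stand beside 37.3% and 44.1% of all genes called in either direction at P30, and 31.3% and 28.9% at P60, against frontal cortex and hippocampus in that order. Without the 4 libraries, 43.2% and 46.6% of all genes were called at P30 and 31.1% at P60 against hippocampus. Trhr was higher in amygdala by 3.26 and 3.82 against frontal cortex at P30 and P60, and by 4.11 and 3.75 against hippocampus (adjusted p from 7.16e-07 to 3.98e-05, limma). The oxytocin receptor Oxtr was higher by 1.73 and 1.99 against frontal cortex, and the galanin receptor Galr1 by 1.42 and 1.97. Trhr2, the second receptor of thyrotropin-releasing hormone in rodents, was lower than in frontal cortex, at -0.73 at P30 and -0.92 at P60, and higher than in P30 hippocampus by 0.81. The vasopressin receptor Avpr1b was lower than in hippocampus, at -1.20 at P30 and -0.998 at P60.

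Among genes that cut, modify or degrade such peptides, Trhde, the enzyme that degrades thyrotropin-releasing hormone, was lower in amygdala than in frontal cortex (-1.12 at P30, -0.82 at P60) and than in hippocampus (-1.77 and -1.12). Of the 12 genes of this list, 1 was higher and 4 lower at P30 against frontal cortex, 4 higher and 4 lower against hippocampus, and at P60 1 higher and 2 lower, and 5 higher and 1 lower. Of all genes, 37.3%, 44.1%, 31.3% and 28.9% were called in these 4 comparisons. The counts without the 4 libraries were 2 higher and 5 lower, and 5 higher and 4 lower at P30, and 5 higher and 3 lower at P60 against hippocampus, where Trhde lay at -1.80. The prohormone convertase Pcsk2 was lower than in frontal cortex, at -0.78 and -0.90, while Pcsk1 was higher than in hippocampus by 1.35 and 1.46.

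Of 23 other hypothalamic peptides, 14 were tested at each age. Against frontal cortex, 3 were called higher and 3 lower at P30, and 6 higher and 3 lower at P60. Against hippocampus, 10 were higher and 2 lower at P30, and 8 higher and 2 lower at P60. The share of all genes called was 37.3% and 31.3% against frontal cortex and 44.1% and 28.9% against hippocampus. Without the 4 libraries, 4 were higher and 4 lower at P30 against frontal cortex, and 10 higher and 2 lower against hippocampus at both ages. Neurotensin (Nts) was higher than in frontal cortex by 1.08 and 2.11, and prodynorphin (Pdyn) lower, at -1.93 and -1.51. The striatum list summed to 338.8 to 1431 in KO and 518.2 to 1478 in WT P30 frontal cortex. In P30 amygdala it summed to 310.1 to 582.8 in KO and 316.8 to 817.4 in WT. At P60 the sums were 384.6 to 1856 and 852.1 to 1392 in frontal cortex, against 347.6 to 618.2 and 373.9 to 415.5 in amygdala. The part of striatal tissue in the differences against frontal cortex was not tested. Against hippocampus, Cartpt was higher by 2.02 and 2.33 and Adcyap1 by 2.23 and 2.00. Of the 24 genes of the hypothalamus list, 11 were tested at P30, with 8 higher and 1 lower against frontal cortex and 7 higher and 0 lower against hippocampus. At P60 14 were tested, with 10 higher and 0 lower, and 9 higher and 0 lower. Of all genes, 23.4% and 28.8% were called higher at P30 and 20.3% and 19.6% at P60. Listed genes that passed the minimum only through amygdala libraries could hardly be called lower. Fezf1, for example, was at 0 in all P60 frontal cortex and hippocampus libraries. How many genes of the list entered in this way was not counted, so these counts and shares are not like for like. With the 4 libraries left out, 9 were higher and 1 lower at P30 against frontal cortex, 7 higher and 0 lower at P30 against hippocampus and 9 higher and 0 lower at P60 against hippocampus. Dlk1, Baiap3, Irs4 and Ecel1 were among the 6 higher in all 4 comparisons, Dlk1 by 3.84 to 4.47.

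The hypothalamus sum was 202.8 to 389.5 in KO and 116.5 to 443.5 in WT P30 amygdala, against 72.60 to 134.1 and 74.06 to 148.6 in P30 frontal cortex and 81.94 to 99.49 and 85.51 to 201.3 in P30 hippocampus. It was 233.7 to 519.8 in KO and 116.1 to 372.8 in WT P60 amygdala, against 69.50 to 91.65 in all P60 frontal cortex libraries and 96.86 to 123.2 in all P60 hippocampus libraries. Its factors Hmx2, Hmx3 and Nkx2-4 were at 0 in all 15 amygdala libraries. In E14 cortex, normalised in a separate table, the same list summed to 575.7 to 1114 in KO and 940.4 to 1418 in WT. The sum is therefore not taken as a measure of hypothalamic tissue. The part of hypothalamic tissue in the region differences was not tested.

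Vasopressin transcripts were spread unevenly. Avp (chromosome 2, 130580620 to 130582554, minus strand, GRCm38) had 0.14, 0.25, 0.13 and 0 in KO and 3.80, 0.15, 1.72 and 0.48 in WT P30 amygdala, where the groups overlapped. In P60 amygdala it had 1.04, 0.37, 18.67 and 0.33 in KO and 0.71, 0.16 and 0 in WT. The value of 18.67 stood on 116 of the gene's 323 reads. WT P30 frontal cortex 4 had 6.77 (42 reads), against 0.15, 0.41 and 0 in the other WT libraries of its group, and WT P60 frontal cortex 1 had 2.47.

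Oxt (chromosome 2, 130576173 to 130577054, plus strand) lies 3565 bases from Avp on the other strand. It had 3 or more reads in 4 of 52 libraries: 0.80 (5 reads) in KO P60 amygdala 3, 0.47 (3 reads) in KO P60 hippocampus 1, 0.48 (3 reads) in WT P30 frontal cortex 4 and 2.20 (16 reads) in WT P60 frontal cortex 1. Each was the library with the highest Avp of its group.

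KO P60 amygdala 3 stood apart for more than Avp. It had the highest value of the 15 amygdala libraries for Oxt, Avp and Gal (3.86), and for 4 transcription factors of the hypothalamus list, Sim1 (24.31), Otp (9.18), Fezf1 (6.60) and Nkx2-1 (1.61). Lhx9 of the same list had 15.13 there, rank 10 of the 15, and its correlation with Trh over the 15 libraries was 0.86. Sim1 and Otp are needed to form the neurons that make oxytocin and vasopressin. The next highest Sim1 was 6.01, in KO P30 amygdala 2, and the next highest Otp 7.09, in WT P30 amygdala 2. Its hypothalamus sum of 519.8 was the highest of the 15, while its Trh of 3.22 and its amygdala sum of 885.2 were the lowest of its group. Bsx, Hmx2, Hmx3, Nkx2-4, Nr5a1, Sim2 and Six6 were at 0 in it, and the pituitary list stayed at 3.13 to 7.56 in its group. This library is male, and it also had the highest Dlx6 (14.01) and Mid2 (73.09) of the 15 and the highest striatum sum of its group (618.2). Neither the part of hypothalamic tissue nor that of Avp made in the male medial amygdala in its Avp value was tested.

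The other amygdala libraries did not share this pattern as a whole. WT P30 amygdala 1, with Avp at 3.80, had Sim1 at 1.13 and Otp at 6.33. WT P30 amygdala 3, with Avp at 1.72, had Sim1 at 0.34, no read of Otp and the second lowest hypothalamus sum (116.5). The correlation of Avp with Sim1 was 0.69 over 15 libraries and 0.09 without KO P60 amygdala 3. The genes most like Avp were Gm42930 (r = 0.88), Mid2 (r = 0.86) and Dlx6 (r = 0.85), and without that library Mid2 fell to 0.43 and Dlx6 to 0.46. The correlation of Avp with Trh was -0.33, and -0.13 without that library.

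**Figure D3:**
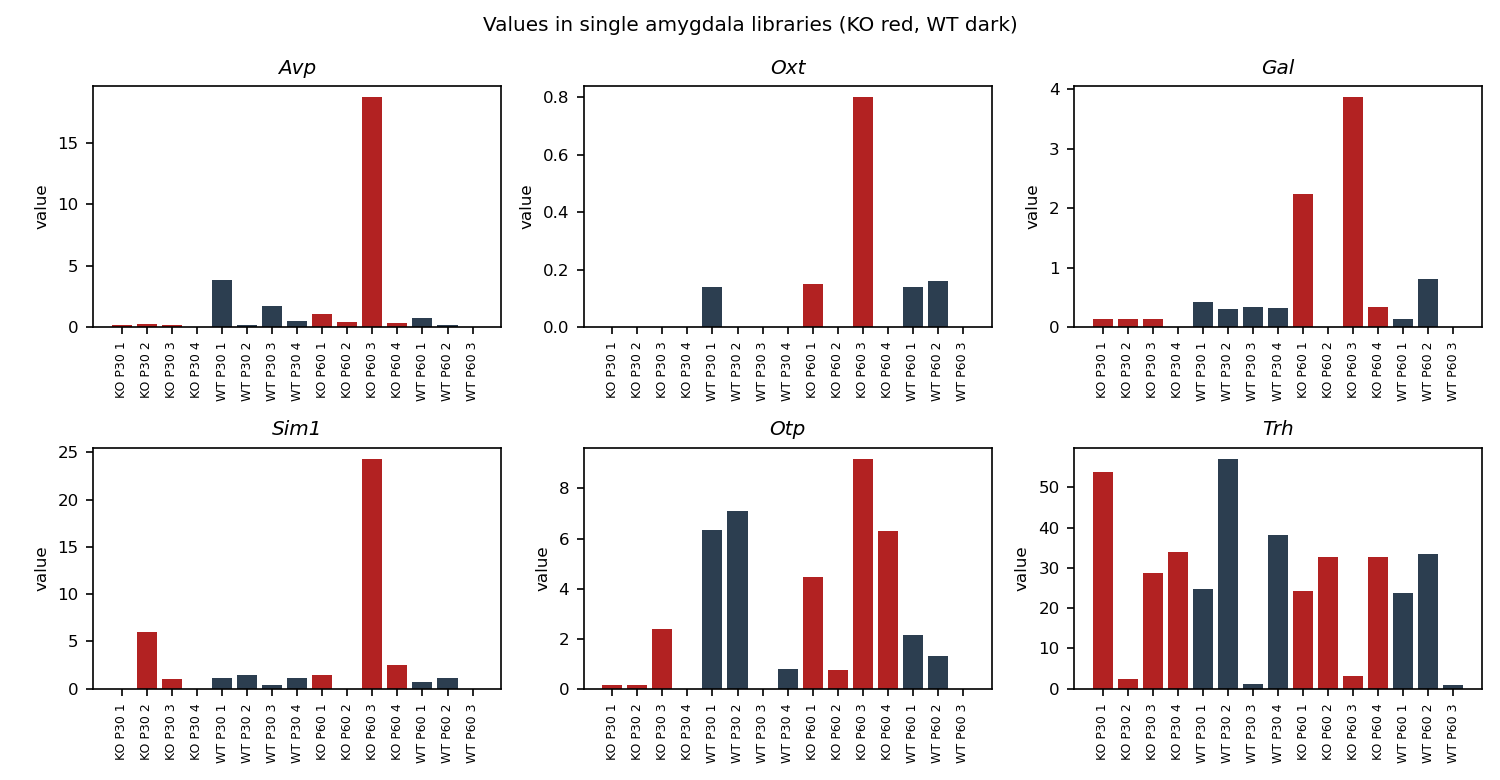
Avp, Oxt, Gal, the factors Sim1 and Otp of the hypothalamus list, and Trh in each of the 15 amygdala libraries (bars, normalised reads from 0; KO red, WT dark). KO P60 amygdala 3 is highest for Avp, Oxt, Gal, Sim1 and Otp and low for Trh.

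Sex differed between groups at P30, where 3 of 4 KO and 1 of 4 WT animals were female. At E14 it was not balanced either, with KO replicates 1 and 2 and WT replicates 1, 2 and 4 female. In the amygdala, Avp ranged from 0.13 to 0.37 in the 7 female libraries and from 0 to 18.67 in the 8 male libraries, with a median of 0.16 in females and 0.875 in males. The difference between the sexes was not tested.

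Galanin was low except in 2 libraries. Gal (chromosome 19, 3409915 to 3414544, minus strand) had 2.23, 0, 3.86 and 0.33 in KO and 0.14, 0.81 and 0 in WT P60 amygdala. At P30 it averaged 0.224 ± 0.143 in amygdala and 0.561 ± 0.276 in hippocampus (SD, n = 8 each), on 12 reads in amygdala and 26 in hippocampus (exact permutation test, two-sided, p = 0.00637, 1 of 49 such tests, of which 4 fell below 0.05 unadjusted). Adjusted over the members so tested in that comparison, the exact permutation p was 0.0319. In the fit of all genes without the minimum, Gal was lower in amygdala than in hippocampus, at -0.34 (adjusted p = 0.0147, limma). Leaving out 1 library gave an exact permutation p between 0.000622 and 0.0127, and leaving out the 2 low libraries of P30 amygdala and hippocampus gave 0.0105. Adjusted within the comparison, these exact permutation p-values were between 0.00311 and 0.0637, and 0.0525. At P60 Gal passed the minimum only through the KO amygdala values of 2.23 and 3.86. There it lay at 0.36 in the other direction, amygdala minus hippocampus (adjusted p = 0.425, limma). In P30 amygdala, KO had 0.14, 0.13, 0.13 and 0, and WT 0.42, 0.31, 0.34 and 0.32, groups that did not overlap but rest on 3 reads in KO and 9 in WT (exact permutation test, two-sided, p = 0.0286, the smallest that 4 against 4 can give). In the fit of all genes without the minimum its adjusted p was 0.653 (limma). Without WT P30 amygdala 3 the exact permutation p was 0.0571.

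The feeding peptides of the arcuate nucleus were low in every group. Pomc (chromosome 12, 3954951 to 3960642, plus strand) averaged 1.20 ± 0.234 in P30 amygdala and 0.651 ± 0.448 in P30 frontal cortex (SD, n = 8 each; exact permutation test, two-sided, p = 0.0104, and 0.0127 without WT P30 amygdala 3). Adjusted over the members so tested in that comparison, the exact permutation p was 0.0521. In the fit of all genes without the minimum the adjusted p of Pomc was 0.0641 (limma). The other exact permutation tests of Pomc between regions gave p = 0.0940 for P30 amygdala against hippocampus, 0.129 for P60 amygdala against frontal cortex and 0.465 for P60 amygdala against hippocampus. Without the libraries low for their own region these tests against hippocampus gave 0.174 at P30 and 0.650 at P60. Leaving out 1 library gave an exact permutation p between 0.00342 (without KO P30 hippocampus 3) and 0.173 for P30 amygdala against hippocampus. For P30 amygdala against frontal cortex it gave between 0.000311 (without WT P30 frontal cortex 3) and 0.0208. At E14 it had 1.88, 0.57, 1.23, 0.74 and 1.49 in KO and 1.38, 2.20, 3.33 and 1.04 in WT, which overlapped. Agrp (chromosome 8, 105566698 to 105637393, minus strand) had group means between 0.540 and 1.86. In P60 it had 1.78, 0.74, 0.97 and 0.83 in KO and 1.28, 1.94 and 1.13 in WT amygdala, against 0.31 and 0.77 in KO and 0.88, 0.57 and 0.52 in WT hippocampus. At P60 Agrp reached the minimum of 1.54 only in amygdala (highest 1.78 in KO and 1.94 in WT) and KO frontal cortex (highest 1.64). Of the 2 regions compared here, it therefore reached the minimum only in the one called higher. The amygdala was higher by 0.49 (SE 0.162, adjusted p = 0.0276, limma), the only other call between regions among members above the minimum. This call ended without WT P60 amygdala 2 (adjusted p = 0.0756, limma), KO P60 amygdala 1 (0.0526), KO P60 hippocampus 1 (0.142), WT P60 hippocampus 2 (0.0547) or WT P60 hippocampus 3 (0.0594), without the libraries low for their own region (0.109) and with the replicate number as a block (0.0635). The Agrp gene model overlaps Gm5914 and Gm45855 on its strand and Gm38250, Ripor1, Mir1966, Gm38384 and Ctcf on the other. Ctcf had group means of 83.12 to 218.6 and Ripor1 of 78.18 to 158.7, far above Agrp. The kit keeps strand, but whether the counting used it is not given in the sources used here. The Agrp values are therefore uncertain.

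The peptides of the lateral hypothalamus had few reads. Pmch (chromosome 10, 88091072 to 88092375, plus strand) had 0.88, 1.15, 1.12, 0.86 and 1.15 in KO and 1.04, 1.21, 1.29 and 1.77 in WT E14 cortex, and 0 to 0.71 in every P30 and P60 library. Part of it lies within Parpbp on the other strand, which had 9.48 to 16.03 in KO and 11.52 to 18.46 in WT at E14, and 0.20 to 2.09 later, so the E14 level of Pmch is uncertain for the same reason. Hcrt (chromosome 11, 100761069 to 100762931, minus strand) had 50 reads in all. At E14 it had 0.25, 0, 0, 0 and 0 in KO and 0.35, 0.22, 0.32 and 0.10 in WT (exact permutation test, two-sided, p = 0.0476, 2 reads in KO and 9 in WT). Per kilobase of transcript, mean levels at E14 were 1.77 for Agrp, 1.55 for Pmch, 1.17 for Pomc and 1.01 for Trh, and in P30 amygdala 21.65 for Trh, 1.45 for Avp, 1.05 for Agrp and 0.910 for Pomc.

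Loss of Mir146 was set against wild type in 7 comparisons, and 0 of the members tested (4 at E14, 3 in each P30 region, 4 in each P60 region) were called. The percentage of all genes called was 0.0489% at E14, 0.0263%, 0.0158% and 0.0316% in P30 amygdala, frontal cortex and hippocampus, and 0.0208%, 0.0312% and 0.0208% in the same regions at P60. At an unadjusted p under 0.05, 0 of these members were found in the 7 comparisons with limma. Over all genes that threshold was passed by 536 of 18397 at E14, by 1867, 371 and 1815 of 18985 in P30 amygdala, frontal cortex and hippocampus, and by 783, 431 and 392 of 19256 in these regions at P60. Among the members under the minimum, 2 of 31 exact permutation tests fell below 0.05 unadjusted, Gal in P30 amygdala and Hcrt at E14.

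The largest fitted differences were those of Avp, and they pointed in opposite directions at the 2 ages. In P30 amygdala Avp lay at -0.95 (SE 0.491, adjusted p = 0.546, limma), KO minus WT, and at -0.57 without WT P30 amygdala 1. There the WT values of 3.80, 1.72 and 0.48 came from males and that of 0.15 from a female. The KO male, replicate 4, had 0, and the other KO libraries were female, so genotype and sex were not balanced in this difference. In P60 amygdala Avp lay at 1.22 (SE 0.723, adjusted p = 0.999, limma), and at 0.30 without KO P60 amygdala 3. Gal lay at 0.75 in P60 amygdala (SE 0.396, adjusted p = 0.999, limma), and at 0.35 without the same library. Trh lay at 0.17 in P30 amygdala (SE 0.816) and at 0.69 in P60 amygdala (SE 0.864), with SEs larger than the values, and at -0.89 in P30 amygdala without WT P30 amygdala 3 and -0.65 in P60 amygdala without WT P60 amygdala 3. At E14 Pomc lay at -0.43 (SE 0.246), Trh at -0.30 (SE 0.341), Pmch at -0.19 (SE 0.138) and Agrp at -0.07 (SE 0.192). The hypothalamus list had 1 call in the 7 comparisons, Foxb1 at E14 (-2.01, adjusted p = 0.0243, limma), and the receptors, processing genes and other peptides had 0. At E14, 0 of the 21 tested genes of the hypothalamus list lay above 0, with a median of -0.65 against 0.0061 over all genes, and the list summed to 1114, 665.8, 996.1, 575.7 and 588.3 in KO and 940.4, 1091, 1418 and 986.8 in WT, which overlapped. In P60 amygdala 14 of 14 lay above 0, with a median of 0.60 against 0.0022 over all genes, and the list summed to 448.4, 233.7, 519.8 and 433.7 in KO and 358.8, 372.8 and 116.1 in WT, which overlapped. In P30 amygdala 4 of 11 lay above 0, with a median of -0.29. Genes of a list were measured in the same libraries, so such counts are not counts of separate observations. At P60 the lowest sum (116.1) was that of WT amygdala 3 and the highest (519.8) that of KO amygdala 3. The counts above 0 were not repeated without either library. The part of this list in the E14 and amygdala values of the members was not tested.

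The difference of the KO effect between amygdala and the other regions was tested in 4 contrasts, in which 0 members and 0% of all genes were called. For Avp it was -0.72 against both frontal cortex and hippocampus at P30 (SE 0.694), and 1.46 (SE 1.02) against frontal cortex and 0.86 (SE 1.13) against hippocampus at P60.

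**Figure D4:**
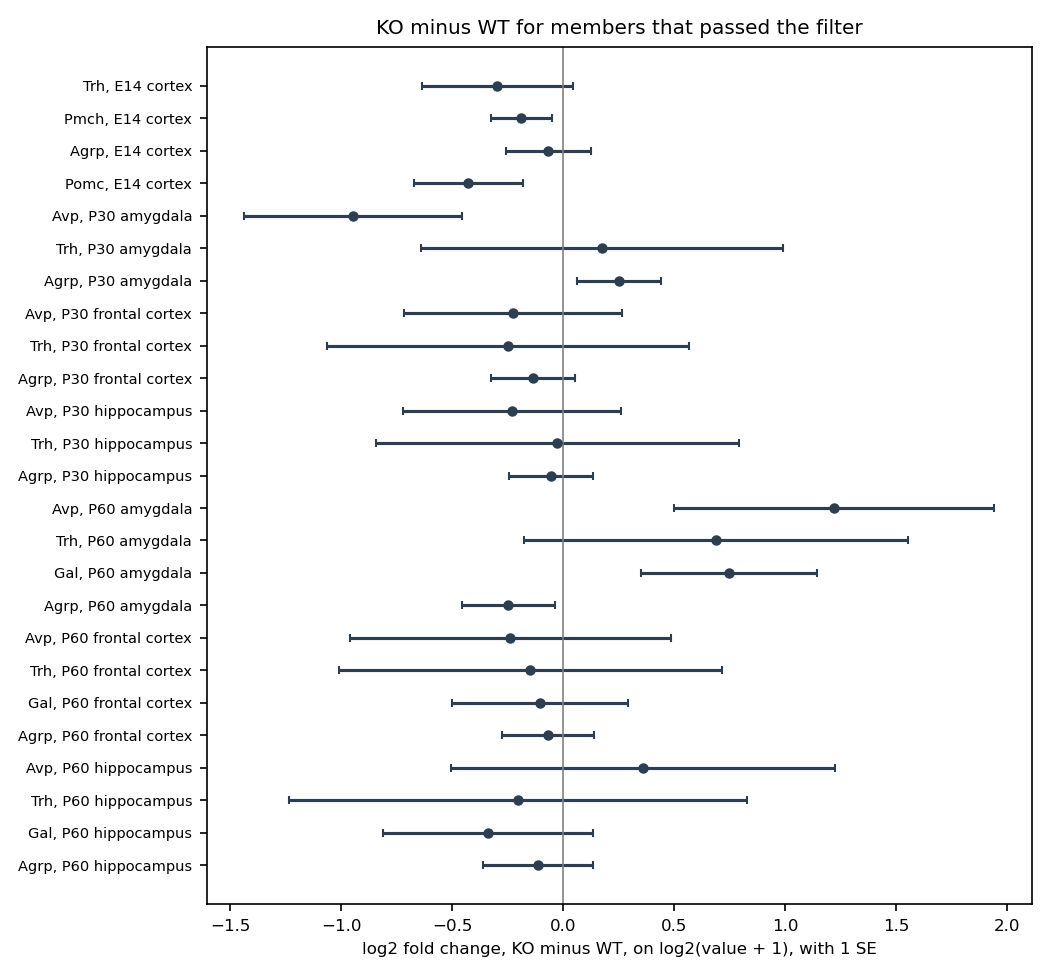
Log2 fold change of KO minus WT on log2(value + 1) (x axis, points with 1 SE) for the members that passed the minimum in each of the 7 comparisons (rows). Avp lies at -0.95 in P30 amygdala and at 1.22 in P60 amygdala, and 0 of the members shown were called.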

How the data were processed

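RNA-seq of 52 mouse brain libraries was used (polyadenylated RNA, Illumina TruSeq Stranded mRNA, per the labels' protocols). The deposited tables give, in a unit that is neither raw reads nor a standard one (other), reads times 1 factor per library. Whole reads were recovered within 0.1 read for 100.0% of the values above 0. DESeq, edgeR, limma and mm9 are listed in the submitters' processing notes, with no role. Which aligner and counter were used is not stated in the labels or headers. One table has its symbol and name headers exchanged.

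Main tests used limma 3.58.1 in R 4.3.3 (trend, robust) on log2(value + 1), with all groups of an age in 1 fit and Benjamini-Hochberg adjustment over 18397, 18985 and 19256 genes at E14, P30 and P60, called at 0.05. Genes needed 10 reads at median depth in at least 4, 4 and 2 libraries and 15 reads in all. Members below this were compared by two-sided exact permutation tests. Tests were tried on simulated data.

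The members and lists were chosen with earlier results of these data known. All 8 members were named, up to 5 called genes per other list by size of change, and the 3 genes most correlated with a member over the 15 amygdala libraries among genes with a mean of at least 5. Positions are from GENCODE M21 (GRCm38) by gene identifier. Equal replicate numbers deviated together (correlation over 0.1 in each of 3 or more pairs) between KO and WT only in P60 amygdala (0.21 to 0.321, 3 pairs), and between amygdala and frontal cortex of P60 KO (0.109 to 0.213) and P60 WT (0.15 to 0.182) and amygdala and hippocampus of P60 WT (0.102 to 0.162). The labels do not say that equal numbers mark the same animal, and p-values measure the spread between these libraries. Intervals and floors cover counting error only.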

Additional observations from a re-analysis of the deposited data

Results flagged for a closer look

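In 80 pairs of a member and a group of 4 or 5 libraries, the gap between the highest or lowest library and its nearest neighbour was set against the range of the group, and 5 stood apart by at least 3 reads. For normally distributed values, chance gives such a ratio in about 1 in 20 groups, before the condition of 3 reads. At that rate some of the 80 pairs would stand apart by chance. These values are low counts with many zeros, so the rate that holds here is not known. With trimmed-mean scaling or on the log2(value + 1) scale, 4 stood apart. Avp was 18.67 in KO P60 amygdala replicate 3, 1.11 in KO E14 cortex replicate 4 and 6.77 in WT P30 frontal cortex replicate 4. Gal was 0.86 in WT E14 cortex replicate 3. Agrp was 1.64 in KO P60 frontal cortex replicate 4.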

How the results depend on the processing

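The alternatives were other pseudocounts (0.1 and 0.5), other minimum levels, trimmed-mean scaling, only the groups compared, sex as a covariate, the replicate block and leaving out each library. The edgeR and DESeq2 fits planned on recovered reads were not run, because the unit recorded for the tables does not allow them. In their place, voom weights in limma were added after seeing the data, as was leaving out the 4 libraries low for their own region. No member was called for KO minus WT under any of these, the replicate block included (0 calls). The number of members called for amygdala minus hippocampus at P60 was 2, and it was 1 with a minimum of 50 reads, with only the groups compared, under the replicate block and without the 4 libraries. With voom it was 0 in each of the 4 region comparisons, against 1, 1, 1 and 2, and the cause was not tested. Without a minimum level it was 2 for amygdala minus hippocampus at P30, where more genes are tested. Leaving out 1 library gave 1 to 2 for both P60 region comparisons, where Gal was called against frontal cortex without KO P60 amygdala 2 (adjusted p = 0.0428, limma). Gal had passed the minimum at P60 only through KO amygdala libraries. Among members under the minimum, 1 comparison passed an adjustment within the comparison, that of Gal between P30 amygdala and hippocampus. The number passing was 0 to 2 when 1 library was left out, and 0 without the 4 libraries, where fewer libraries enter.

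Directions of uncalled values that turned were these, on the log2 scale, and their cause was not tested. Without the 4 libraries, Trh turned to -0.89 for KO minus WT in P30 amygdala, to -0.64 and -0.90 for the difference of that effect from frontal cortex and hippocampus, and to 0.0098 in P30 hippocampus. Agrp turned to 0.014 in P30 and 0.196 in P60 hippocampus, and Avp to -0.049 in P60 hippocampus. Avp in frontal cortex turned to 0.205 at P30 and 0.024 at P60 with a pseudocount of 0.1, and to 0.074 and 0.029 with voom, and Trh in P30 hippocampus to 0.038 with voom. Under the replicate block, Agrp turned to 0.00035 for the difference of KO effects between amygdala and frontal cortex at P60.

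Leaving out 1 library gave these ranges for KO minus WT. Trh ranged from -0.89 to 1.05 in P30 amygdala, -0.65 to 1.48 in P60 amygdala, -0.10 to 0.044 in P30 hippocampus, -0.31 to 0.037 in P60 frontal cortex and -0.34 to 0.057 in P60 hippocampus. Agrp ranged from -0.19 to 0.017 at E14, -0.21 to 0.014 in P30 hippocampus and -0.33 to 0.10 in P60 hippocampus. Avp ranged from -0.53 to 0.45 in P30 and -0.60 to 0.30 in P60 frontal cortex and -0.078 to 0.80 in P60 hippocampus, and Gal from -0.24 to 0.074 in P60 frontal cortex. For the KO effect in amygdala minus that in frontal cortex, Trh ranged from -0.64 to 1.30 at P30 and -0.50 to 1.63 at P60. For amygdala minus hippocampus, it ranged from -0.86 to 1.08 at P30 and -0.44 to 1.68 at P60, Avp from -0.057 to 1.30 and Agrp from -0.35 to 0.085 at P60. Between regions, Avp ranged from -0.35 to 0.19 (P30) and -0.12 to 0.61 (P60) for amygdala minus frontal cortex, and from -0.17 to 0.51 for amygdala minus hippocampus at P60.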
